A study of Mus musculus with 2 samples.

Results

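The Mir322-Mir503 cluster is a group of 7 miRNA genes, Mir322, Mir503, Mir351, Mir542, Mir450-2, Mir450-1 and Mir450b, that follow each other on the minus strand of the mouse X chromosome within 6353 bases. They were chosen by name through their gene identifiers, not by their levels, though with earlier results of these data known. They make up 7 of the 1973 miRNA genes counted. The samples were facial prominences, the embryonic swellings that form the face, jaws and palate, from healthy B6NCrl mouse embryos of 13.5 days, with male and female embryos pooled. MicroRNA sequencing gave 2 libraries of this single group, biological replicates 1 and 2 in the labels, made from RNA shorter than 30 bases; each has its own biosample entry and both have the same donor entry. No second condition was sampled, so what can be read is each gene's level and how far the libraries differ, and p-values measure only the difference between these samples.

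A miRNA is cut from a hairpin in a longer transcript and guides the silencing machinery to messenger RNAs through its seed, bases 2 to 8 from its 5′ end. miR-322 and miR-503 carry a seed of the miR-15 and miR-16 family, which represses cyclins and other drivers of the step from G1 into DNA synthesis. In mouse myoblasts both are known to rise when the cells leave the cell cycle and become muscle, and to act there on the phosphatase Cdc25a. The facial prominences at this age hold dividing mesenchyme, epithelium, forming cartilage and the first muscle, so tissue that divides and tissue that stops dividing were measured together.

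The mature sequences show which members can act on the same targets and which cannot be told apart by sequencing. RefSeq (GRCm38.p6) held mature products for all 7 members, 14 products with 13 different sequences. They are written 5′ to 3′, with the seed in capitals, and the miR-15, miR-16 and miR-125 products from other chromosomes follow for comparison.
miR-322-5p: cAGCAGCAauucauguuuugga
miR-503-5p: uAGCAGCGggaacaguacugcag
miR-15a-5p: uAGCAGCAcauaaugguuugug
miR-16-5p: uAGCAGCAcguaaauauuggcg
miR-351-5p: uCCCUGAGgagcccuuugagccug
miR-125a-5p: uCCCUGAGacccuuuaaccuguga
miR-125b-5p: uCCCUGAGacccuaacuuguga
miR-542-3p: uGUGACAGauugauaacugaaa
miR-450a-5p: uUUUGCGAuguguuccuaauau
miR-450b-5p: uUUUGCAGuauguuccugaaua
miR-450a-1-3p: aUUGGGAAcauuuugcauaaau
miR-450a-2-3p: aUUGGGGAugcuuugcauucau
The miR-322 seed is identical to that of miR-15a and miR-16, and miR-503 differs from it by the change A8G, with positions counted from 1 at the 5′ end of miR-322. Over their whole length, seed included, miR-322-5p and miR-15a-5p had the same base at 15 of 22 positions, and miR-322-5p and miR-503-5p at 11 of 22. miR-351 has the seed of the miR-125 family, known from differentiating tissues. It was identical to miR-125a-5p over its first 8 bases and, without gaps, at 10 of 24 positions in all. All such counts compare positions from the 5′ end without gaps, so like stretches that are shifted against each other are missed. miR-450a-5p and miR-450b-5p differ within the seed by G7A and A8G. miR-542-3p shared bases 2 to 7 with no other mature miRNA in the table.

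By these sequences the 7 genes hold 3 kinds of products: a miR-15 and miR-16 kind from Mir322 and Mir503, a miR-125 kind from Mir351, and the products of Mir542 and the Mir450 genes. Of this last kind, bases 2 to 7 of miR-542-3p, miR-450a-5p and miR-450b-5p stood in no mature miRNA outside the cluster. The counts are per gene and do not separate the 5p and 3p products of a hairpin.

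In the facial prominences the level, in counts per 1000000 counts on miRNA genes (CPM), depended strongly on the hairpin, although the genes lie side by side on 1 strand. Mir322 led by far, Mir351 came next, Mir503 and Mir542 stood close together below it, and Mir450b, Mir450-1 and Mir450-2 were the lowest. Mir322 lies on the minus strand at chrX:53054255-53054349 (GRCm38), upstream of the other members, and its 5p product at chrX:53054306-53054327. Its 184954 counts in replicate 1 gave 40541 CPM (95% Wilson interval 40361 to 40722), and its 271494 counts in replicate 2 gave 47043 CPM (46870 to 47216), or 43792 ± 4597 CPM (SD, n = 2). This placed it at rank 6 of the 683 genes with a count. Reads with several places in the genome stand outside the gene counts, so levels and ranks are of uniquely placed reads. Intervals cover counting error only, since reads copied by PCR are not independent molecules, and in a piece of tissue more cells of a type and more RNA per cell cannot be told apart.

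Mir503 begins 295 bases downstream of the start of the Mir322 hairpin (chrX:53053984-53054054), with 200 bases between the hairpins, and carries nearly the same seed. Its level was 961 CPM in replicate 1, against 1008 CPM in replicate 2, or 984 ± 33.2 CPM and rank 97. Mir322 thus exceeded its closest neighbour 42.2-fold in replicate 1 and 46.7-fold in replicate 2. Mir351 (chrX:53053255-53053353), which in mouse muscle progenitor cells is known to favour division by acting on E2f3, follows 630 bases further on. It had 4067 CPM in replicate 1 and 4091 CPM in replicate 2, 4079 ± 16.6 CPM and rank 46. It was higher than Mir503 in both libraries, 4.15 ± 0.123-fold, so levels did not fall steadily along the transcript.

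Mir542 (chrX:53049403-53049487), whose 3p product is known from human cells as a repressor of the survival protein survivin, lies beyond a gap of 3767 bases. It had 885 CPM in replicate 1 and 945 CPM in replicate 2, 915 ± 42.1 CPM and rank 99. It therefore stood at nearly the level of Mir503, which exceeded it 1.09-fold in replicate 1 and 1.07-fold in replicate 2. Mir450b (chrX:53047997-53048078), the last hairpin, had 199 CPM in replicate 1 and 201 CPM in replicate 2. The pair in front of it was much lower: Mir450-1 (chrX:53048154-53048244) had 96 and 107 counts, or 21.0 CPM in replicate 1 and 18.5 CPM in replicate 2, and Mir450-2 (chrX:53048299-53048367) had 60 and 79 counts, or 13.2 and 13.7 CPM. Mir450b exceeded Mir450-1, which is 75 bases away, by 10.2 ± 0.970-fold. All 7 members passed the count minimum of 10 in both libraries.

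**Figure D1:**
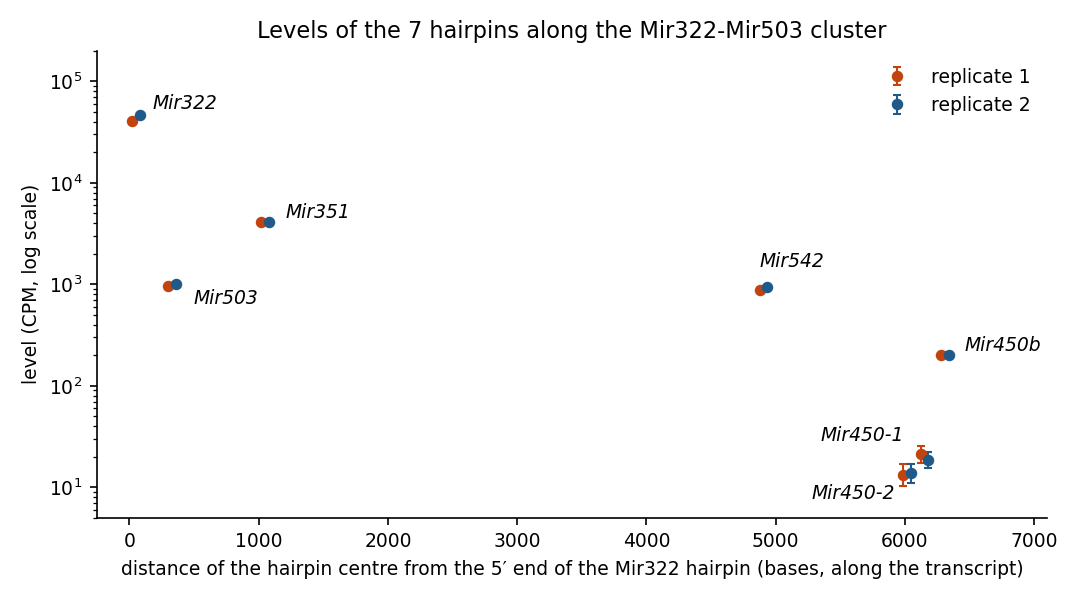
Level of each hairpin (CPM, log scale) against its distance in bases from the 5′ end of the Mir322 hairpin, with replicate 1 and replicate 2 as points (set apart by 30 bases to either side for legibility) and 95% Wilson intervals as bars. Mir322 stands at 40541 and 47043 CPM at the 5′ end, Mir351 lies above Mir503 although it is further downstream, and Mir450b at the 3′ end lies above the Mir450-2 and Mir450-1 hairpins in front of it.

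The order of the members was the same in both libraries, Mir322, Mir351, Mir503, Mir542, Mir450b, Mir450-1 and Mir450-2. The ranges over the libraries did not overlap for any pair of neighbours in this order. The closest pairs were Mir503 over Mir542, by 1.08 ± 0.0132-fold, and Mir450-1 over Mir450-2, by 1.48 ± 0.174-fold. In replicate 2 the Wilson intervals of Mir450-1 and Mir450-2 overlapped (15.3 to 22.4 CPM for Mir450-1 and 11.0 to 17.1 CPM for Mir450-2), so this step was within counting error there. With 2 libraries no permutation test of a pair can pass 0.05, and none was run. Divided by hairpin length, the mean levels kept this order, with Mir322 at 46097, Mir351 at 4120, Mir503 at 1386, Mir542 at 1076, Mir450b at 244, Mir450-1 at 21.7 and Mir450-2 at 19.4 CPM per 100 bases of hairpin.

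Mir322 exceeded Mir450-2 by 3083-fold in replicate 1 and 3437-fold in replicate 2. Across the 7 members the SD of log2 mean CPM was 4.15, against 3.76 across the 360 genes with at least 10 counts in both libraries. In uniquely placed reads, the levels of this single cluster were thus about as widely spread as those of all tested miRNA genes. The low end of this spread rests on Mir450-1 and Mir450-2, whose counts leave out reads that fit both genes. Mir450b, the next member above them, had a mean of 200 CPM. The median of the 7 members was 915 CPM, against 113 CPM for the tested genes.

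**Figure D2:**
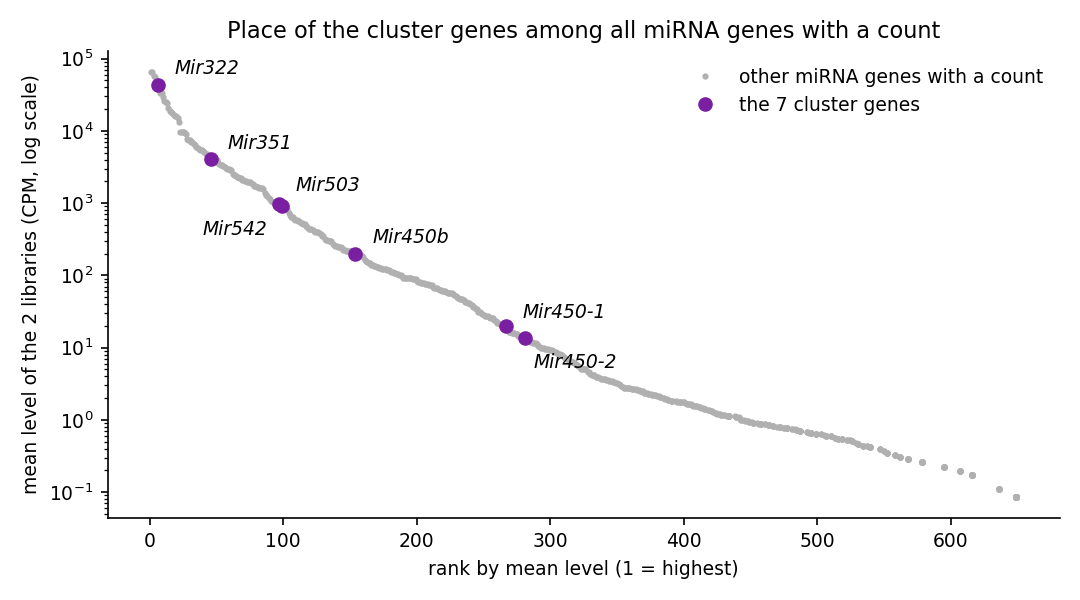
Mean level of the 2 libraries (CPM, log scale) against rank for the 683 miRNA genes with a count, with the 7 cluster genes as large points. Levels and ranks are of uniquely placed reads. Mir322 stands at rank 6, Mir503 and Mir542 lie side by side at ranks 97 and 99, and Mir450-1 and Mir450-2 lie at ranks 267 and 281.

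The low counts of Mir450-1 and Mir450-2 have to be read with their sequences. The hairpins share a run of 25 bases, uUUUUGCGAUGUGUUCCUAAUAUgu, which holds all of miR-450a-5p (capitals), so a read of that product has a place in both genes. Multiply placed reads stand in a class outside the gene counts, with 30.7% of reads in replicate 1 and 31.0% in replicate 2, and how many of them were miR-450a-5p was not tested. The 3p products occur in 1 hairpin each, and they differ from each other at 6 of 22 positions. The values of Mir450-1 and Mir450-2 are thus levels of uniquely placed reads, not of miR-450a as a whole. All mature products of Mir322, Mir503, Mir542 and Mir450b were found in their own hairpin alone among the 1005 hairpin genes of the table. The Mir351 hairpin was not searched.

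Mir322 alone accounted for most reads of the cluster. It held 86.8% of cluster counts in replicate 1 (95% Wilson interval 86.7 to 87.0) and 88.2% in replicate 2 (88.1 to 88.3). The hairpins fall into a group of 3 at the 5′ end (Mir322, Mir503 and Mir351, within 1095 bases) and a group of 4 at the 3′ end (Mir542 and the Mir450 genes, within 1491 bases). The group of 3 held 97.7 ± 0.132% of cluster counts and the group of 4 held 2.30 ± 0.132%. Without Mir322, the other 6 members had 6146 CPM in replicate 1 and 6276 CPM in replicate 2, and the 3 Mir450 genes together had 233 CPM in each.

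No annotated gene of GENCODE release M21 overlapped any of the 7 hairpins. The non-coding gene C430049B03Rik, on the same strand, ends 696 bases upstream of Mir322, and the non-coding gene Gm28730 lies between Mir542 and Mir351. The nearest protein-coding genes are Plac1, a placental gene 15645 bases upstream, and Hprt, a purine salvage enzyme on the opposite strand at 26337 bases. On the strand opposite the hairpins 0 reads were counted in either library for each of the 7 members, which allows up to 0.658 CPM in replicate 1 and 0.520 CPM in replicate 2 (3 counts).

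The Mir450 hairpins are poorer in G and C than those of Mir322, Mir503 and Mir542. The Mir450 hairpins had a GC content of 30.5 to 36.2%, against 51.6% in Mir322, 54.9% in Mir503 and 51.8% in Mir542. Their predicted minimum free energies were -26.5 kcal/mol in Mir450-2, -31.8 in Mir450b and -41.0 in Mir450-1, against -42.9 in Mir322, -38.1 in Mir542 and -37.6 in Mir503. Per 100 bases of hairpin they were -38.4 kcal/mol in Mir450-2, -38.8 in Mir450b and -45.1 in Mir450-1. On that scale Mir322 had -45.2, Mir542 -44.8 and Mir503 -53.0, so Mir450-1 stood beside Mir322 and Mir542.

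Among genes that share bases 2 to 7 of the seed with Mir322 and Mir503, AGCAGC, the uniquely placed reads came mostly from Mir322. RefSeq named 10 such partner genes, 9 of them in the files and 5 with counts: Mir15a, Mir16-1, Mir15b, Mir195a and Mir16-2, genes known for holding back cyclins and the survival factor Bcl2. Mir322 held 84.1% of the counts of this seed group in replicate 1 (83.99 to 84.3) and 85.8% in replicate 2 (85.7 to 85.97), Mir503 held 1.92 ± 0.110%, and the 5 partners held 13.1 ± 1.09%. Mir15a was the highest partner, with 2965 CPM in replicate 1, against 2737 CPM in replicate 2. miR-16-5p stands in both Mir16-1 and Mir16-2, so these shares, too, are of uniquely placed reads and not of the miRNA family as a whole.

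Mir351 stood at the level of Mir125a, whose seed it shares, and above the other miR-125 genes. It had 4067 and 4091 CPM in the 2 libraries, Mir125a had 4414 CPM in replicate 1 and 3407 CPM in replicate 2, Mir125b-1 had 2050 and 1943 CPM, and Mir125b-2 had 516 and 620 CPM. The ranges of Mir351 and Mir125a overlapped, so which was higher differed between the libraries. Mir351 held 36.8% of the counts of this group in replicate 1 and 40.7% in replicate 2. miR-125b-5p is a product of both Mir125b-1 and Mir125b-2, so this is again a share of uniquely placed reads.

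**Figure D3:**
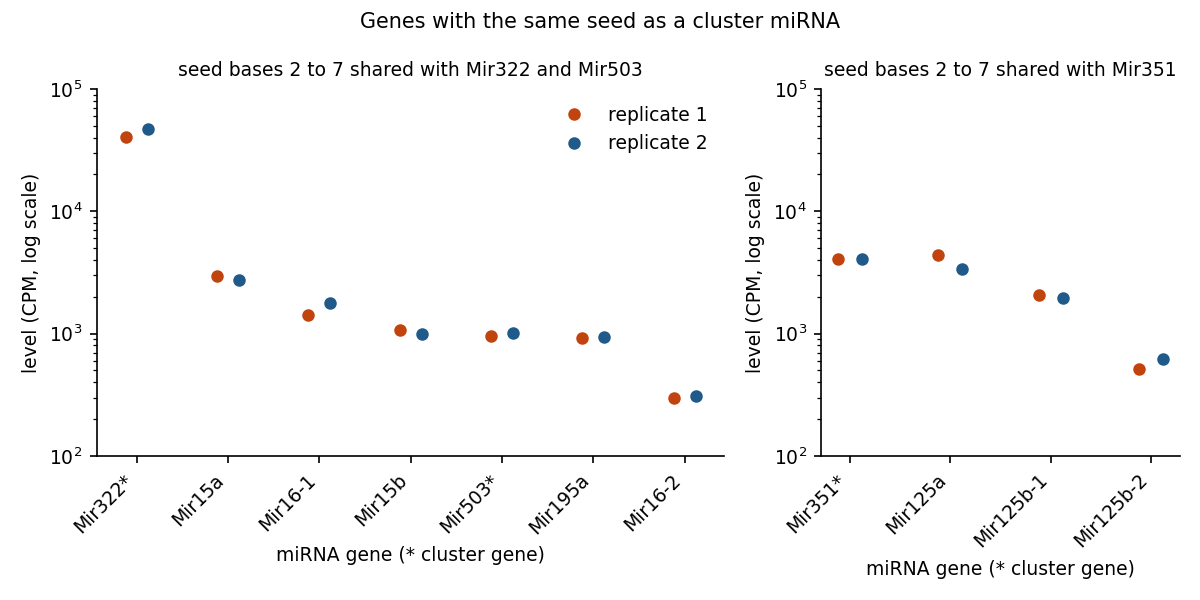
Level in replicate 1 and replicate 2 (CPM, log scale) of each gene with counts that shares seed bases 2 to 7 with Mir322 and Mir503 (left) or with Mir351 (right), with cluster genes marked by an asterisk. Mir322 stands above the Mir15, Mir16 and Mir195a genes, while Mir503 lies among them and Mir351 lies at the level of Mir125a.

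Matches to these seeds were looked up in the 3′ UTRs of 4 cell cycle genes known as targets of the family, to show what the miRNAs can pair with. The searched motifs were TGCTGCT, which pairs with bases 2 to 8 of miR-322, and CGCTGCT, which pairs with those of miR-503; only the messenger strand was searched, in the longest 3′ UTR of each gene in GENCODE release M21. The lines give the messenger sequence with the match in capitals.
Cdc25a, miR-322 motif, chr9:109892550-109892573, plus strand: gaaaagccgcccaagTGCTGCTgg
Cdc25a, miR-322 motif, chr9:109892855-109892878, plus strand: gctgcagaccagtatTGCTGCTac
Ccnd1, miR-322 motif, chr7:144930393-144930416, minus strand: ttgtgcatgccaccaTGCTGCTgg
Ccnd1, miR-503 motif, chr7:144930869-144930892, minus strand: cggctcctctcatggCGCTGCTac
Ccnd1, miR-503 motif, chr7:144930792-144930815, minus strand: ctttcacgttgttttCGCTGCTat
Ccne1, miR-322 motif, chr7:38098022-38098045, minus strand: ctcttattttgtaagTGCTGCTat
Chek1, miR-322 motif, chr9:36710289-36710312, minus strand: tcctggtgaatagagTGCTGCTat
Cdc25a, the phosphatase that starts cyclin-dependent kinases, had 2 matches to the miR-322 motif, while 24.1% of the 1426 3′ UTRs within 10% of its length held at least 1. Ccnd1, the cyclin of G1, had 1 match to the miR-322 motif (37.4% of 1210 UTRs of like length) and 2 to the miR-503 motif (7.2%). Ccne1, the cyclin of entry into DNA synthesis, had 1 miR-322 match (9.5% of 1053) and Chek1, a checkpoint kinase, had 1 (26.0% of 1459). The miR-503 motif had 0 matches in Cdc25a, Ccne1 and Chek1, where 5.4%, 1.5% and 5.5% of UTRs of like length held it. This says only that these 7 letters are not in those UTRs. Each miR-322 match listed above holds GCTGCT, which pairs with bases 2 to 7 of miR-322 and of miR-503 alike. Such shorter matches were not counted for miR-503. A match is a description of letters, and no messenger RNA was measured here.

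Between the libraries the members differed little in level. Log2 ratios of replicate 1 over replicate 2, after TMM scaling, ran from -0.24 for Mir322 to 0.16 for Mir450-1, and the median absolute ratio of the members was 0.09, against 0.23 for the 360 tested genes. These medians are not of genes matched in level: the median level was 915 CPM for the members and 113 CPM for the tested genes. Ratios of genes with fewer counts carry more counting error. In the two-sided exact binomial test, adjusted by Benjamini-Hochberg over all tested genes, 199 of them differed between the libraries by more than counting error (55.3%), and 4 of the 7 members did. The members' share is close to that of all genes. Calls at small ratios of abundant genes rest on the scaling: TMM moved every log2 ratio by -0.02 against total counts, and on simulated data small errors of the scaling led to calls among genes that had not been changed. All 4 had the higher level in replicate 2, which held for 109 of the 360 genes (30.3%), while the other 90 called genes (25.0% of those tested) had it in replicate 1.

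Mir322 was lower in replicate 1, at a log2 ratio of -0.24 (95% interval -0.25 to -0.23). Mir542 was lower there too, at -0.12 (-0.18 to -0.06, adjusted p = 2.32e-04, exact binomial test), and Mir503 at -0.09 (-0.15 to -0.04, adjusted p = 0.00305, exact binomial test). Mir351 passed at a log2 ratio of only -0.03 (adjusted p = 0.0447, exact binomial test), and the call was lost with DESeq2 size factors (0.117), with total counts (0.637) and with a count minimum of 1 (0.0631). Mir450b (-0.04), Mir450-2 (-0.08) and Mir450-1 (0.16) did not pass (adjusted p = 0.659, 0.849 and 0.528, exact binomial test), where 60 to 1160 counts left intervals as wide as -0.59 to 0.42 for Mir450-2. The ratio of Mir322 was near the middle of all genes, with 50.6% of tested genes at a smaller absolute ratio, while those of Mir351 and Mir450b were among the smallest, with 6.94% and 8.06% below them. Within the cluster, Mir322 exceeded Mir351 by 9.97-fold in replicate 1 and by 11.5-fold in replicate 2.

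**Figure D4:**
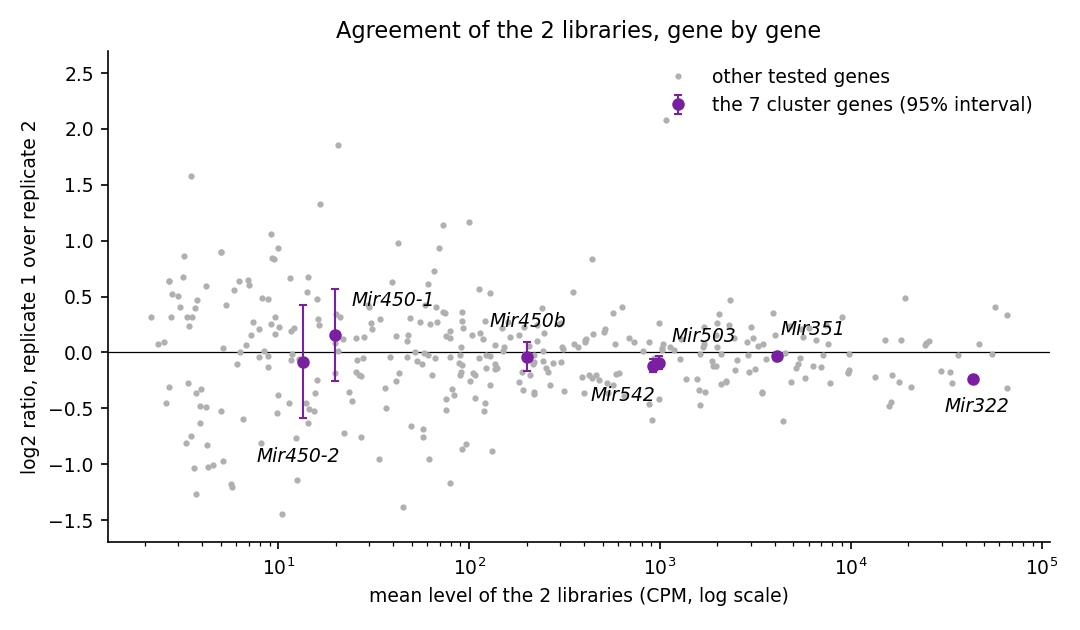
Log2 ratio of replicate 1 over replicate 2 against mean level (CPM, log scale) for the 360 tested genes, with the 7 cluster genes and their 95% intervals in purple. The cluster genes lie between -0.24 and 0.16, and the intervals of Mir450-2, Mir450-1 and Mir450b cross 0.

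In uniquely placed reads, other listed miRNAs tied to leaving the cell cycle, 5 of which are the seed partners above, were all lower than Mir322. Of 12 listed genes 11 were in the files and all 11 were tested, with a median of 586 CPM and a median log2 ratio of -0.17, and 8 differed between the libraries, 2 of them with more in replicate 1 and 6 with more in replicate 2, beside the 55.3% of tested genes that differed. Mir26b led with 28027 CPM in replicate 1, against 30985 CPM in replicate 2, followed by Mir15a and Mir16-1, and the p53 targets Mir34a and Mir34c stood at 254 ± 14.6 and 586 ± 48.6 CPM. The members other than Mir322 thus fell within the range of this list, which ran from 10.5 CPM for Mir26a-1 to 29506 CPM for Mir26b. A low value of a gene sets no limit for its miRNA where the mature sequence stands at several loci, as for miR-16-5p.

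In uniquely placed reads, the listed muscle miRNAs stood far below Mir322. Of 11 listed genes 10 were in the files, 7 had counts, and their summed level was 642 CPM in replicate 1 and 415 CPM in replicate 2. Mir206, the miRNA of embryonic skeletal muscle, had 570 CPM in replicate 1 and 314 CPM in replicate 2 (log2 ratio 0.84, adjusted p = 9.62e-81, exact binomial test), the direction opposite to that of Mir322. Mir208b, of heart and slow muscle, had 39.0 CPM in replicate 1 and 60.6 CPM in replicate 2, and Mir133b had 13.2 and 11.1 CPM. Of the 6 tested genes of the list, Mir206 had more in replicate 1 and Mir208a, Mir208b and Mir499 had more in replicate 2, with a median log2 ratio of -0.25, beside the 55.3% of tested genes that differed. Mir1a-1, Mir133a-1 and Mir133a-2 were at 0, which sets no limit for them, since their mature sequences stand at several loci. The part of muscle tissue in the difference of Mir322 was not tested.

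Markers of other tissues also differed between the libraries. Mir140 of cartilage had 18603 CPM in replicate 1 and 22710 CPM in replicate 2, while Mir214 of mesenchyme had 26825 and 24589 CPM. The other listed mesenchymal genes, Mir199a-1 (log2 ratio -0.44) and Mir199a-2 (-0.29), had more in replicate 2, like Mir140. Of the epithelial miRNAs, Mir203 (log2 ratio 0.49) and Mir205 (0.11) had more in replicate 1, and Mir200b (-0.61) and Mir429 (-0.48) had more in replicate 2. The markers of these tissues were thus present, and within each list they did not all differ in 1 direction. Mir451a and Mir144 of red blood cells together had 91.0 CPM in replicate 1 and 151 CPM in replicate 2, Mir122 of liver had 49.5 and 109 CPM, and the 3 Mir124a genes of neurons had at most 1 count each in either library, which sets no limit where a mature sequence stands at several loci. Their part in the ratios of the cluster was not tested.

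The cluster was the main source of uniquely placed X-linked miRNA reads. Products that stand at several loci are not fully counted here. Of 120 miRNA genes on the X chromosome 59 had counts, and the 7 members held 61.3% of their counts in replicate 1 and 65.2% in replicate 2. Mir322 was the highest X-linked gene and Mir351 the fourth, with Mir652 (9754 ± 33.6 CPM), Mir98 of the let-7 family (5491 ± 621 CPM) and Mir361 (2906 ± 2.38 CPM) leading outside the cluster. The Mir106a to Mir363 cluster, a relative of the proliferation-linked Mir17 cluster, lies on the same strand 305429 bases downstream. Its highest gene, Mir106a, had 416 CPM in replicate 1, against 281 CPM in replicate 2. Of the 33 tested X-linked genes outside the cluster 16 differed between the libraries, 10 with more in replicate 1 and 6 with more in replicate 2, at a median log2 ratio of -0.02, beside the 55.3% of all tested genes that differed.

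The genes nearest in level to the members, by distance in log2 CPM over the 2 libraries, lay on other chromosomes, apart from Mir676 and Mir18b. Nearest to Mir322 were Mir335 (48410 CPM in replicate 1 and 45219 CPM in replicate 2, distance 0.26), Mir17 (36420 and 36375 CPM, 0.40) and Mirlet7g (55301 and 54804 CPM, 0.50). Nearest to the others were Mir30d for Mir351 (0.03), Mir676 for Mir503 (0.11), Mir195a for Mir542 (0.06), Mir330 for Mir450b (0.04), Mir18b for Mir450-1 (0.05) and Mir1249 for Mir450-2 (0.09). With 2 libraries this likeness is mostly one of level, and it says nothing of shared control.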

How the data were processed

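The authors deposited raw read counts per miRNA gene for each library, on the mm10 build with the GENCODE release M4 annotation per the deposited description files; for the aligner and counter, the tool is not given in the sources used here. The files have no header: of the 3 count columns the second, counts on the strand of the gene, was used, and the first equalled the sum of the other 2 in all 1973 genes. Reads with several places in the genome, unmapped reads and reads on no gene stand in classes of their own and were left out of totals. Gene totals came to 4562135 counts for replicate 1 and 5771249 for replicate 2. Names came from GENCODE release M21 (1894 genes matched), sequences from RefSeq GRCm38.p6 (mature products for 7 members, hairpins for 6). CPM is counts per 1000000 of the total. Libraries were compared by TMM scaling (edgeR 4.0.16, R 4.3.3) and a two-sided exact binomial test on genes with at least 10 counts in both, at an adjusted p of 0.05, which compares libraries and counting error only; the script was tested on simulated data. DESeq2 1.42.0 size factors were an alternative. Hairpins were folded with RNAfold 2.7.2. Genes named were the members, the lists and the genes nearest in log2 CPM (pseudocount 0.5 reads). Members, lists and target genes were chosen with earlier results of these data known.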

Additional observations from a re-analysis of the deposited data

Results flagged for a closer look

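Reads with several places in the genome, outside the gene counts used here, came to 3179149 in replicate 1 and 4058237 in replicate 2, above the limit of 3 counts that 0 reads would leave. Among the cluster genes, miR-450a-5p stands in both Mir450-1 and Mir450-2, and how many of these reads belong to it was not tested. The groups hold too few samples to look for a library far from the others.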

How the results depend on the processing

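The order of the members was the same per hairpin length and in either library alone. The median level of the members, 915 CPM, was 979 CPM with the most abundant gene left out of the total and 1076 CPM per 100 bases of hairpin, and the fold of Mir322 over Mir450-2, 3260, was 2367.5 per base of hairpin. Leaving out either library gave 885 to 945 CPM for that median, 4.67 to 5.33% for the cluster's share of gene counts, 86.8 to 88.2% for the share of Mir322 in the cluster and 3083 to 3437 for the fold. Genes that differed between the libraries numbered 178 to 208 over the alternatives, and 3 or 4 members did; Mir351 was the member lost. The median log2 ratio of the members lay between -0.09 and -0.06, and TMM moved all ratios by -0.02 against total counts, about the size of the ratio of Mir351. Of the alternative values, 87 stayed within the spread between libraries or kept their call, 16 moved further and 3, all of Mir351, lost a call. Some of the 87 could not have moved. With 2 libraries, leaving out either gives the value of the other, which always lies within their SD. Counting both strands could not change the share or fold of Mir322, since the members had no opposite-strand reads. Mir450-1 and Mir450-2 were not tested at a count minimum of 100. Depth limits Mir450-1 and Mir450-2, at 60 to 107 counts. No paired analysis was possible because the labels give a single group.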

Other observations

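In uniquely placed reads, the 15 listed genes of the Mir17 cluster and its relatives, known for driving proliferation, ran from 4.18 CPM for Mir19b-2 to 36397 CPM for Mir17. None was above Mir322, and products that stand at several loci are not fully counted. Of these genes 6 had more in replicate 1, 6 had more in replicate 2 and 3 did not pass, beside 55.3% of all tested genes that differed. Their summed level was 82506 CPM in replicate 1 and 89748 CPM in replicate 2, while the Mir322 cluster summed to 46688 CPM in replicate 1 and 53319 CPM in replicate 2. Both sums are of uniquely placed reads.

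The 3p products of the Mir450 genes fall into another grouping than the 5p products. miR-450a-1-3p and miR-450b-3p have the same seed, and differ from each other at 2 of 22 positions, while miR-450a-2-3p differs from them within the seed. The longest run that the Mir450-1 and Mir450b hairpins share is 19 bases.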
